A study of Mus musculus with 6 samples.

Results

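The axon guidance ligands and receptors were described in the ipsilateral cortex of mice with photothrombotic stroke. They were taken by gene symbol from the GENCODE annotation as the protein-coding genes of the semaphorin, plexin, neuropilin, Eph receptor, ephrin, Slit, Robo, netrin-G and Unc5 families with the netrins Ntn1 and Ntn4 and the receptor Dcc. The symbols gave 71 genes, of which 65 had a value among the 15441 gene identifiers with a value in the series, and 55 were listed in all 6 libraries. Photothrombosis closes cortical vessels by illuminating the skull after injection of the dye Rose Bengal. Male C57/BL6J mice of 6 to 8 weeks were used, and RNA of the whole ipsilateral cortex was pooled from 3 mice per group into 1 poly(A)-selected, strand-specific library. The groups were sham-operated mice without illumination, taken on day 7 after the operation (control), and stroke mice killed 1 day, 3 days, 7 days, 14 days or 28 days after illumination. With 1 library per group no difference has a replicate check, no p-value was computed and no error can be attached to a value.

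Axon guidance molecules steer growing nerve fibres in development. Semaphorins signal through plexins, and most of the secreted class 3 semaphorins also need a neuropilin as co-receptor. Ephrins bind Eph receptor tyrosine kinases on neighbouring cells, Slits bind Robo receptors, and netrins attract or repel axons through Dcc and the Unc5 receptors. In the adult brain these molecules remain at synapses and on glia and vessels, and several of them are known as inhibitors of axon growth after injury. The symbol rule also takes Unc50, a Golgi membrane protein, and Unc5cl, a death domain protein, which share the first letters of the family name but are no netrin receptors.

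The level of a gene is given in FPKM, a fragment count scaled to transcript length and library size, as the authors deposited it. The tables give an FPKM for every transcript start, every transcript end and every splicing event. For each gene the summed starts, the summed ends and every single event were compared and the highest was taken as its level. Before the log2 ratio to control was formed, 0.1 FPKM was added to both levels, for genes with at least 1 FPKM in 1 of the 2 libraries, and a gene with a log2 ratio of 1 or more in size is called higher or lower. Genes absent from the table of a library are described as not listed there, were counted as 0 in counts and medians, and are given no ratio of their own in the text. The libraries listed between 13263 and 13987 genes and their depth is unknown. In whole cortex, fewer cells of a type and less RNA per cell cannot be told apart.

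Cortical tissue was recognisable in every library, with a summed level of 8 cortical neuron markers between 54.6 and 73.9 FPKM. The summed level of 8 detected microglia and macrophage markers of a list of 9 was 94.1 FPKM in control, 103 on day 1, 255 on day 3, 370 on day 7, 288 on day 14 and 101 on day 28. Markers of pericytes and fibroblasts (8 of 8 detected) went from 46.3 in control to 126 on day 7 and 42.4 on day 28, and those of 9 detected neuronal genes of 10 from 2421 in control to 1756 on day 7. The 7 astrocyte markers summed to 857 FPKM in control and 1512 on day 3, the 7 endothelial markers to 33.3 and 63.2, and the 6 detected of 7 oligodendrocyte markers to between 1634 and 2307 across the libraries. The 3 detected of 6 oligodendrocyte precursor markers ranged from 10.5 to 15.2 FPKM, and Pdgfra, C1ql1 and Olig1 had no value. Neutrophil and lymphocyte markers (4 of 6 detected) summed to 17.7 FPKM on day 1 and 0.0729 in control. Markers of neighbouring tissue also varied: 6 detected hypothalamic markers of 8 had 9.99 FPKM in control and 70.0 on day 1, 4 choroid plexus markers had 183 on day 3 and 564 on day 28, 5 detected striatal markers of 7 had 194 on day 7 and 360 on day 28, and 5 thalamic markers had 16.8 to 26.7. The part of these cell and tissue differences in the results on guidance genes was not tested.

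Guidance genes were called about as often as other genes. Of the 61 with at least 1 FPKM in any library, 17 were higher or lower at 1 or more days (27.9%, all genes 27.6%) and 44 at none. Within 0.5 of control on the log2 scale were 66.1% of them on day 1 (all genes 72.4%), 77.0% on day 3 (72.7%), 74.6% on day 7 (74.4%), 66.1% on day 14 (61.8%) and 70% on day 28 (80.5%). On day 1, 1 of 59 genes was higher, against 5.11% of all genes compared, and 7 were lower, against 4.48%. Of these 7, Sema3a was not listed on day 1 and counts as lower only because it was taken as 0. Among the 58 genes listed in both libraries 6 were lower. On day 3, 2 of 61 were higher (all genes 8.54%) and 0 were lower (2.53%). On day 7, 2 of 59 were higher (8.53%) and 2 lower (2.12%). On day 14, 1 of 59 was higher (8.97%) and 8 were lower (6.92%). Of these 8, Sema5a, Dcc and Unc5d were not listed on day 14 and count as lower only because they were taken as 0, and among the 56 genes listed in both libraries 5 were lower. On day 28, 2 of 60 were higher (3.68%) and 2 lower (2.79%). As percentages of the guidance genes, the lower ones were 11.9% on day 1 and 13.6% on day 14, and 0 to 3.39% at the other days. The median log2 ratio of the guidance genes was -0.27 on day 1, -0.05 on day 3, -0.00 on day 7, -0.18 on day 14 and -0.12 on day 28, beside 0.01, 0.03, 0.03, 0.10 and 0.03 for all genes. On day 1, 43 of the 59 genes were below control. The share of all genes below control was not counted. Over all genes, the day 1 log2 ratio had a rank correlation of -0.25 with transcript length, and the part of length was not tested. Among the 55 genes listed in every library, control held the highest level for 15 (27.3%, all genes 12.9%), day 1 the lowest for 15 (27.3%, all genes 18.0%), and day 14 the highest for 6 (10.9%, all genes 27.8%).

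**Figure D1:**
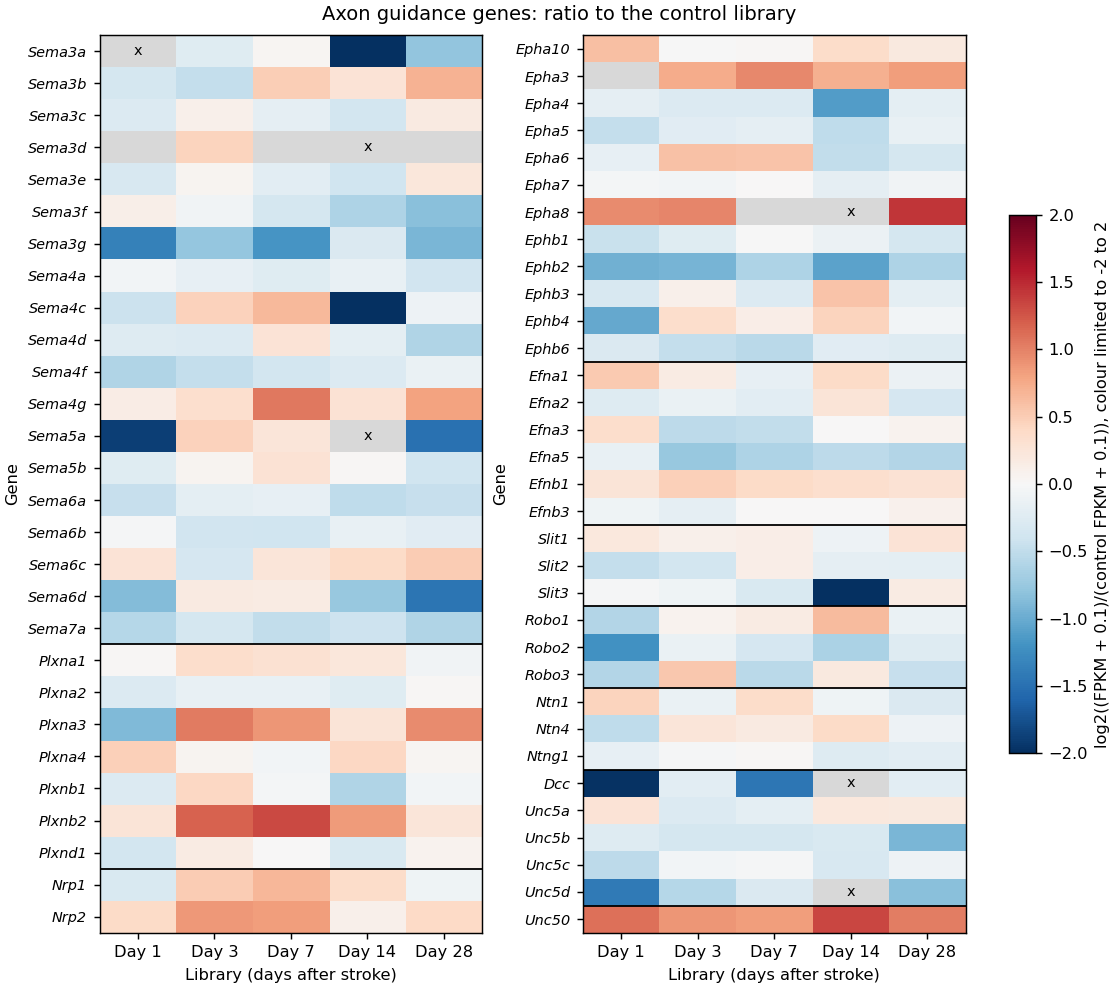
Log2 ratio to control, log2((FPKM + 0.1)/(control FPKM + 0.1)), of the 61 guidance genes with at least 1 FPKM in any library, by day after stroke (columns, 1 library each) and gene (rows, families separated by lines). Grey cells were not compared or have no ratio, x marks a gene not listed that day, and the colour is limited to -2 and 2. Plxnb2 reads 1.18 on day 3 and 1.32 on day 7, and Slit3, Sema4c and Sema3a are at the dark end on day 14.

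Of the 5 genes that were higher at any day, Plxnb2 and Plxna3 are receptors for semaphorins and Sema4g is a ligand, and Epha8 and Unc50 are the other two. Plxnb2, a B-class plexin that binds class 4 semaphorins, had 6.39 FPKM in control, 7.68 on day 1, 14.6 on day 3, 16.1 on day 7, 11.6 on day 14 and 7.57 on day 28. Its log2 ratio was 1.18 on day 3 and 1.32 on day 7, and day 28 lay close to day 1. Its gene (ENSMUSG00000036606) lies on the minus strand of chromosome 15, 89155549 to 89180788 of GRCm38. On day 3 its summed starts and summed ends were both above control, with 11.7 and 14.6 FPKM against 5.28 and 6.39. On day 7 they parted, since the starts had 2.71 FPKM (log2 ratio -0.94) and the ends 16.1, and on day 14 no start was listed while the ends had 11.6. The higher call on day 7 therefore rests on the ends. Plxna3, an A-class plexin, had 1.56 FPKM in control, 0.799 on day 1, 3.31 on day 3, 2.94 on day 7, 1.87 on day 14 and 3.09 on day 28, with a log2 ratio of 1.04 on day 3 (0.76 with a pseudocount of 1 FPKM). Its outer listed start had 0.0520 FPKM in control, 1.60 on day 3, 1.62 on day 7 and 2.01 on day 28, and was not listed on day 1 and 14.

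Both neuropilins were above control on day 3 and 7 without reaching the threshold. Nrp1, the co-receptor of Sema3a that also binds vascular endothelial growth factor, had 5.38 FPKM in control, 4.35 on day 1, 7.65 on day 3, 8.59 on day 7, 6.99 on day 14 and 5.04 on day 28 (log2 ratio 0.67 on day 7). Nrp2, the co-receptor of Sema3f, had 4.64 in control, 6.08 on day 1, 8.57 on day 3, 8.34 on day 7, 4.97 on day 14 and 6.12 on day 28 (0.87 on day 3). The summed microglia and macrophage markers were 255 FPKM on day 3 and 370 on day 7, against 94.1 in control, and the part of these cells in the neuropilin and plexin levels was not tested. Nrp2 had a pair of transcript ends. The upstream end had 1.57 FPKM in control and 3.91 on day 3, and the downstream end 2.84 in control, 4.11 on day 3 and 4.79 on day 7, so that both were above control on these days.

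The other plexins differed less between libraries. Plxnb1, the Sema4d receptor, had the highest level of the family in control, with 12.9 FPKM, 10.6 on day 1, 17.2 on day 3, 12.6 on day 7, 8.45 on day 14 and 12.4 on day 28. It used an outer start, which had between 6.93 and 10.6 FPKM in all libraries, and an inner start with 3.79 in control, 6.31 on day 3 and no listing on day 14. Plxnd1, the direct receptor of Sema3e, had 11.0 FPKM in control, 8.55 on day 1, 12.4 on day 3, 11.1 on day 7, 8.87 on day 14 and 11.5 on day 28. Plxna1, Plxna2 and Plxna4 ranged from 5.06 to 9.01 FPKM over the 6 libraries. On day 3, 6 of the 7 plexins with a value were above control, with a family median of 0.35 (all genes 0.03).

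**Figure D2:**
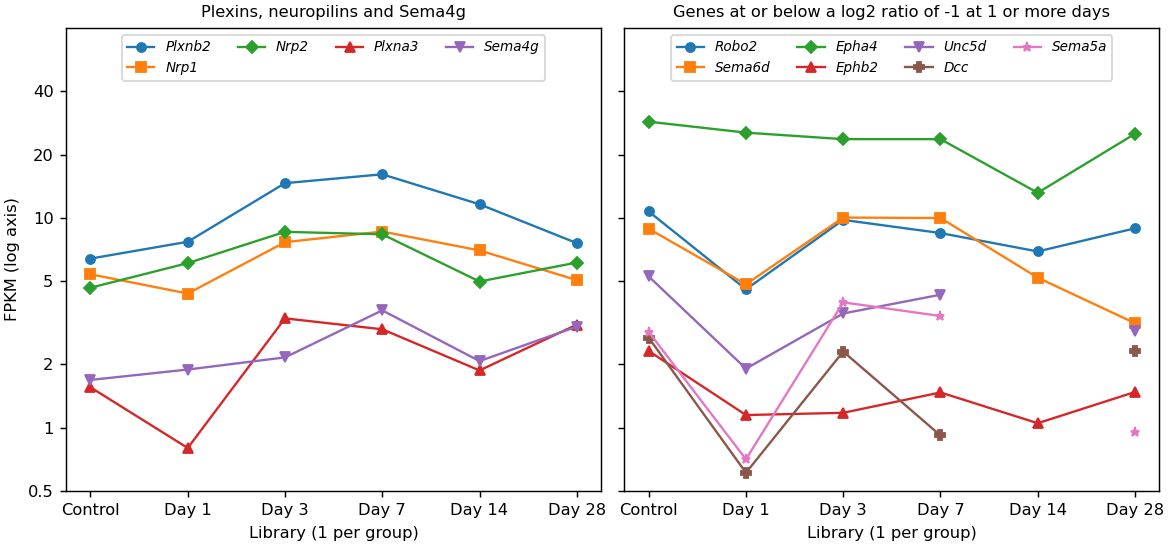
FPKM (log axis) in the 6 libraries, 1 per group, of plexins, neuropilins and Sema4g (left) and of 7 genes that were lower at 1 or more days (right). Plxnb2 runs from 6.39 FPKM in control to 16.1 on day 7 and back to 7.57 on day 28, the right panel has low points on day 1 for Robo2, Sema5a, Dcc and Unc5d, and gaps in a line mean that the gene was not listed.

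Upstream sequences are shown for a co-receptor above control on day 3 and 7 (Nrp2) and for the most abundant receptor that was lower at any day (Epha4). They are from RefSeq (GRCm38.p6), end at the base before the GENCODE gene start, and are written 5′ to 3′ in the direction of the gene. Capitals mark the core of a hypoxia response element, ACGTG, on either strand. The Nrp2 sequence is at chr1:62703067-62703284 (plus strand) and Epha4 at chr1:77515089-77515338 (minus strand).
Nrp2: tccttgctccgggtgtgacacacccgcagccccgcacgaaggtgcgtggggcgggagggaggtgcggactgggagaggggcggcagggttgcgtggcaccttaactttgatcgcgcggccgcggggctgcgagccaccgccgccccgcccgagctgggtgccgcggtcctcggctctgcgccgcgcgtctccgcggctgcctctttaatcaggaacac
Epha4: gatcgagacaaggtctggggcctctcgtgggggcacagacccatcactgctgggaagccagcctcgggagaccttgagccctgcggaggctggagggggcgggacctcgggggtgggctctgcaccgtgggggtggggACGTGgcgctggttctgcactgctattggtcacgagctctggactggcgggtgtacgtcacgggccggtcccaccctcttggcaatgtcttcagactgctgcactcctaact

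Promoters of 61 of the 71 genes were found by symbol in RefSeq, and the 250 bases before the start were searched on both strands for short motifs. ACGTG was found for 11 of the 61 genes (18.0%, all genes 18.5%), the AP-1 motif TGACTCA for 2 (3.28%, all genes 5.16%), the cyclic AMP response motif TGACGTCA for 1 (1.64%, all genes 1.77%), the NF-kB-like motif GGGNNTTCC for 4 (6.56%, all genes 5.61%) and the STAT motif TTCCNGGAA for 0 (all genes 1.09%). Motifs were counted separately, also where they overlapped. Each share was near that of all genes, and the letters alone say nothing of binding.

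Leaving Unc50 aside, Sema7a had the highest level of the guidance genes in control and on day 3, Sema6b on day 1, and the ephrin Efnb3 at the other days. On day 14 Unc50 had 28.5 FPKM and Efnb3 28.4. Sema7a, which is anchored in the membrane by a lipid and binds integrins and Plxnc1, had 34.0 FPKM in control, 23.0 on day 1, 26.5 on day 3, 24.1 on day 7, 25.6 on day 14 and 22.4 on day 28, so that control was above every stroke library. Sema6b, a transmembrane ligand of A-class plexins, had 29.1 in control, 28.5 on day 1, 22.3 on day 3, 22.1 on day 7, 26.3 on day 14 and 24.8 on day 28. Sema4d, known from oligodendrocytes as a ligand of Plxnb1, ranged from 11.2 FPKM on day 28 to 20.6 on day 7. Of 18 semaphorins compared on day 1, 15 were below control, with a family median of -0.33 (all genes 0.01). On day 28, 13 of 18 were below control, with a median of -0.39 (all genes 0.03).

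Class 4 semaphorins that bind Plxnb2 did not share a course. Sema4g had 1.69 FPKM in control, 1.89 on day 1, 2.16 on day 3, 3.62 on day 7, 2.07 on day 14 and 3.03 on day 28, and its log2 ratio on day 7 was 1.06. The ratio was below the threshold with a pseudocount of 1 FPKM (0.78) and by summed ends (0.59). Sema4c had 2.26 in control, 1.66 on day 1, 3.16 on day 3, 3.59 on day 7, 0.0973 on day 14 and 2.09 on day 28. The day 14 level of Sema4c was the lowest of any guidance gene compared and listed that day. The control level is that of its starts, 2.26 FPKM, and no start was listed on day 14. Its summed ends had 0.158 FPKM in control and 0.0973 on day 14.

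Secreted semaphorins had low levels. Sema3a, which collapses growth cones, had 3.16 FPKM in control, 2.66 on day 3, 3.25 on day 7, 0.448 on day 14 and 1.79 on day 28. It was not listed on day 1, which counts as lower. Its day 14 log2 ratio was -2.57, and it rests on starts alone, because no transcript end of Sema3a was listed in any library. The start with the most RNA lies within the gene, at bases 13399309 to 13400069 of chromosome 5. Sema3g had 1.31 in control, 0.451 on day 1, 0.720 on day 3, 0.523 on day 7, 1.06 on day 14 and 0.645 on day 28. It was lower on day 1 (-1.35) and day 7 (-1.18), and on neither day with a pseudocount of 1 FPKM (-0.67 and -0.60). The control level of Sema3g is that of its starts, and no start was listed on day 1 and 7. Its summed ends had 0.486 FPKM in control, 0.451 on day 1 and 0.523 on day 7, so the lower calls rest on starts. Sema3b, Sema3c, Sema3d, Sema3e and Sema3f stayed between 0.523 and 3.70 FPKM where listed and were called at no day.

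Transmembrane semaphorins of class 5 and 6 included the lower genes of day 28. Sema5a had 2.86 FPKM in control, 0.706 on day 1, 3.95 on day 3, 3.40 on day 7 and 0.955 on day 28, and was not listed on day 14. It was lower on day 1 (-1.88) and day 28 (-1.49, or -0.98 with a pseudocount of 1 FPKM), and its absence on day 14 counts as lower. Each level of Sema5a is that of its starts, so these calls rest on starts alone. Its ends were listed on day 3 only, with 0.816 FPKM. Sema6d, a ligand of Plxna1, had 8.86 in control, 4.82 on day 1, 10.02 on day 3, 9.97 on day 7, 5.18 on day 14 and 3.14 on day 28 (-1.47, or -0.95 by starts alone). The start of Sema6d with the most RNA had 1.53 FPKM in control, 7.04 on day 7 and 0.691 on day 28, and its level of 8.86 in control comes from another event. Its summed starts had 1.58 FPKM in control, 4.82 on day 1, 0.814 on day 3 and 8.12 on day 7. They had 3.24 on day 14 and 0.768 on day 28. By starts, Sema6d was therefore above control on day 1, 7 and 14. Sema4a, Sema4f, Sema5b, Sema6a and Sema6c were called at no day and had between 1.81 and 10.9 FPKM.

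Epha4, a receptor for ephrins of both classes that is found on neurons and astrocytes, had the highest level of the Eph receptors except on day 14, when Ephb6 was above it. Epha4 (chromosome 1, 77367185 to 77515088, minus strand) had 28.7 FPKM in control, 25.4 on day 1, 23.7 on day 3, 23.7 on day 7, 13.1 on day 14 and 25.1 on day 28. On day 14 the log2 ratio was -1.12, or -0.89 after correction for transcript length, and the other 5 libraries lay between 23.7 and 28.7. Here starts and ends went together: the start had 28.7 FPKM in control and 13.1 on day 14. Of its transcript ends, the outer one had 21.5 FPKM in control and 12.2 on day 14, and an inner one 7.15 in control and 0.959 on day 14. Ephb6, a receptor without kinase activity, had 21.1 in control, 17.2 on day 1, 15.2 on day 3, 14.4 on day 7, 17.9 on day 14 and 17.7 on day 28.

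Ephb2, a receptor at excitatory synapses, had 2.32 FPKM in control, 1.15 on day 1, 1.18 on day 3, 1.47 on day 7, 1.05 on day 14 and 1.48 on day 28. All 5 stroke libraries were below control, and the threshold was passed on day 14 (-1.07), but not with a pseudocount of 1 FPKM (-0.70) or the length correction (-0.81). Ephb4, the venous receptor of ephrin-B2, had 1.19 in control, 0.530 on day 1, 1.55 on day 3, 1.32 on day 7, 1.66 on day 14 and 1.14 on day 28, and was lower on day 1 (-1.03), but not with a pseudocount of 1 FPKM (-0.52) or the length correction (-0.98). The summed starts of Ephb4 had 0.737 FPKM in control and 0.530 on day 1, and its control level of 1.19 comes from another event. Epha8 had 0.492 in control, 1.03 on day 1, 1.06 on day 3, 0.834 on day 7 and 1.498 on day 28 (1.43, or 0.74 with a pseudocount of 1 FPKM), and was not listed on day 14. Epha3, Epha5, Epha6, Epha7, Epha10, Ephb1 and Ephb3 were called at no day. Among them Epha3 was below all others, from 0.851 FPKM in control to 1.76 on day 7, and Epha5 went from 14.9 in control to 10.4 on day 14. The family median was -0.29 on day 1 and between -0.19 and -0.00 at the later days.

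None of the 6 ephrins compared was higher or lower at any day. Efnb3, a transmembrane ephrin of neurons, had 28.4 FPKM in control, 26.7 on day 1, 25.2 on day 3, 28.6 on day 7, 28.4 on day 14 and 30.1 on day 28. Efna3, a lipid-anchored ephrin, had 16.2 in control, 20.6 on day 1, 11.2 on day 3, 11.5 on day 7, 16.3 on day 14 and 17.0 on day 28. Efna5 was highest in control (4.73) and lowest on day 3 (2.76), and Efnb1 was lowest in control (3.06) and highest on day 3 (4.30). Efna1 and Efna2 had between 1.88 and 3.49 FPKM.

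Slits and their receptors differed in single libraries. Slit1 had 11.5 FPKM in control, 13.4 on day 1, 12.3 on day 3, 12.7 on day 7, 10.8 on day 14 and 14.0 on day 28. Slit3 had 5.89 in control, 5.82 on day 1, 5.57 on day 3, 4.77 on day 7, 0.637 on day 14 and 6.59 on day 28. The log2 ratio of Slit3 on day 14 was -3.02. Its start had 5.89 FPKM in control and 0.606 on day 14, whereas its summed ends had 0.818 in control and 0.637 on day 14, so the difference is one of starts. The listed end with the most RNA lies inside the gene, at bases 35178040 to 35179187 of chromosome 11. Slit2 had between 2.19 and 3.38 FPKM. Robo2, the Slit receptor with the highest level, had 10.7 in control, 4.56 on day 1, 9.77 on day 3, 8.45 on day 7, 6.91 on day 14 and 8.91 on day 28, and was lower on day 1 (-1.21), but not by its starts alone (-0.58) or with the length correction (-0.98). Robo3 had 4.58 in control, 3.01 on day 1, 6.69 on day 3, 3.12 on day 7, 5.24 on day 14 and 3.28 on day 28. Robo1 had 2.64 FPKM on day 1 and 6.29 on day 14. All 3 Robo receptors compared were below control on day 1, with a median of -0.59 (all genes 0.01).

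Among the netrin receptors, Dcc and Unc5d were lower on day 1 and not listed on day 14, which counts as lower. Dcc, the attractive netrin receptor, had 2.68 FPKM in control, 0.609 on day 1, 2.30 on day 3, 0.917 on day 7 and 2.30 on day 28, with log2 ratios of -1.97 on day 1 and -1.45 on day 7 (-0.94 with a pseudocount of 1 FPKM). The control level of Dcc is that of its ends. Its summed starts had 0.442 FPKM in control and 0.917 on day 7, above control, and no start was listed on day 1. Unc5d, a repulsive receptor, had 5.25 in control, 1.91 on day 1 (-1.41, or -0.13 by starts alone), 3.497 on day 3, 4.30 on day 7 and 2.90 on day 28. Unc5a had the highest level of the family, with 19.4 in control, 23.5 on day 1, 16.0 on day 3, 16.9 on day 7, 22.4 on day 14 and 22.1 on day 28. Unc5b went from 4.89 in control to 2.56 on day 28, and Unc5c had between 2.29 and 3.33 FPKM. Of the netrins and netrin-Gs taken by the rule, the 3 with a value, Ntn1, Ntn4 and Ntng1, were called at no day. Ntn4, a basement membrane netrin, had 1.87 in control, 1.29 on day 1, 2.23 on day 3, 2.14 on day 7, 2.45 on day 14 and 1.74 on day 28, and Ntn1 had between 1.36 and 2.33 FPKM. Ntng1, a lipid-anchored synaptic protein, had 3.87 in control, 3.46 on day 1, 3.79 on day 3, 3.95 on day 7, 3.21 on day 14 and 3.31 on day 28.

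Unc50, which is no guidance receptor, accounts for each higher call on day 1 and 14. It had 11.3 FPKM in control, 24.2 on day 1, 20.8 on day 3, 20.2 on day 7, 28.5 on day 14 and 22.9 on day 28, so all stroke libraries were above control. Its log2 ratio was 1.10 on day 1, 1.34 on day 14 and 1.02 on day 28, and with the length correction 0.95, 0.98 and 0.99. Without it, no guidance gene was higher on day 1 and day 14, and 1 was higher on day 28.

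On day 14, starts and ends of the same guidance genes parted. By summed starts, 32 of 55 guidance genes compared (58.2%) were lower than control, against 16.9% of all genes, and their median log2 ratio was -2.06, beside 0.02 for all genes. By summed ends, 4 of 42 (9.52%) were lower, against 6.68% of all genes, with a median of 0.09 beside 0.15. The 4 were Epha4, Ephb2, Unc5d and Dcc, and the last 2 of these were not listed at all. Of 39 genes compared by both sums, 20 were lower by starts and not by ends, 3 by both and 0 by ends and not by starts. For 13 of the 39 no start was listed on day 14, and for 1 no end. This split was not counted over all genes. A narrower set had starts and ends listed in all 6 libraries and at least 1 FPKM in each. There the log2 ratio of starts to ends on day 14 was -1 or less for 8 of 26 guidance genes (30.8%, all genes 7.40%). In control this held for 0 of the 26 (all genes 2.55%).

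For Plxna1, as for Epha5, Epha6, Ephb2, Ntn4, Sema3e and Unc5b, summed starts and summed ends were equal in the other 5 libraries and differed on day 14. The start had 5.73 FPKM in control, 5.83 on day 1, 7.33 on day 3, 7.07 on day 7, 0.376 on day 14 and 5.46 on day 28, and the end had the same values except on day 14, where it had 6.73. Epha5 starts had 14.9 FPKM in control and 2.52 on day 14, and its ends 14.9 and 10.4. Sema3e starts had 3.16 and 0.418, and its ends 3.16 and 2.38. For Unc5c the starts had 3.33 in control and 0.00628 on day 14, and the ends 3.33 and 2.64. On day 1 as well, Unc5c starts had 0.180 FPKM and its ends 2.29, and Plxna4 starts 1.08 and its ends 7.33. Plxna4 and Unc5b were not listed at their starts on day 14 while their ends had 7.00 and 3.94 FPKM. The genes whose starts and ends stayed together on day 14 included the ephrins Efna1, Efna2, Efna3, Efna5 and Efnb1.

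**Figure D3:**
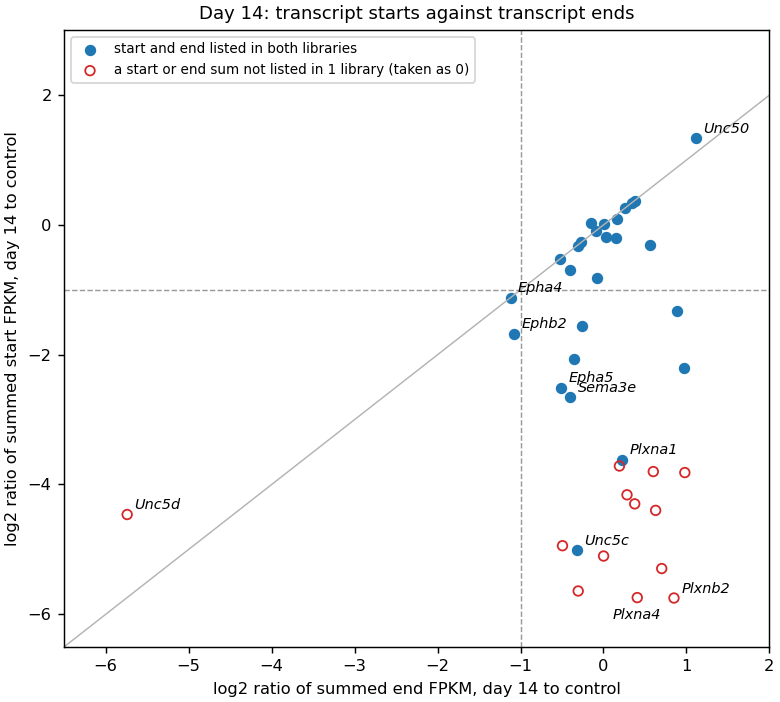
Log2 ratio of day 14 to control by summed transcript ends (horizontal) and summed transcript starts (vertical) for the 39 guidance genes compared by both, with the diagonal of equal ratios and dashed lines at -1. A group of 20 points lies in the lower right, lower by starts and not by ends, and open circles have a sum that was not listed in 1 library and was taken as 0.

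Guidance genes are long. The median longest transcript was 5000 nt for the 65 genes with a value and 3178 nt for all genes with a value, and the median genomic span 69.0 kb and 23.6 kb. Among all genes with a transcript of at least 5000 nt, 42.9% were lower on day 14 by starts and 13.0% by ends. On day 1, 9 of 55 genes were lower by starts (16.4%, all genes 7.88%, long genes 15.2%) and 2 of 40 by ends (5%, all genes 5.38%). By starts, 2 of 55 were higher on day 1 (5.82%), 2 of 57 higher (10%) and 3 lower (3.5%) on day 3, 3 of 56 higher (9.86%) and 1 lower (3.23%) on day 7, 1 of 55 higher on day 14 (8.38%), and 1 of 56 higher (4.72%) and 3 lower (4.62%) on day 28, with the share of all genes in brackets. By ends, 1 of 40 was higher on day 1 (7.42%), 1 of 40 higher (10.5%) and 0 lower (3.91%) on day 3, 2 of 41 higher (10.5%) and 1 lower (3.34%) on day 7, 1 of 42 higher on day 14 (11.8%), and 1 of 41 higher (5.51%) and 0 lower (3.95%) on day 28. Except on day 1 by starts and on day 14 by starts and by ends, no share of lower guidance genes was above 5.36%. On day 14, 7 of the 65 genes were not listed, against 1 to 4 in the other libraries. Of all 15441 identifiers with a value, 13263 were listed on day 14, 13267 in control and 13357 to 13987 on the other days. The part of transcript length in the differences between starts and ends was not tested.

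**Figure D4:**
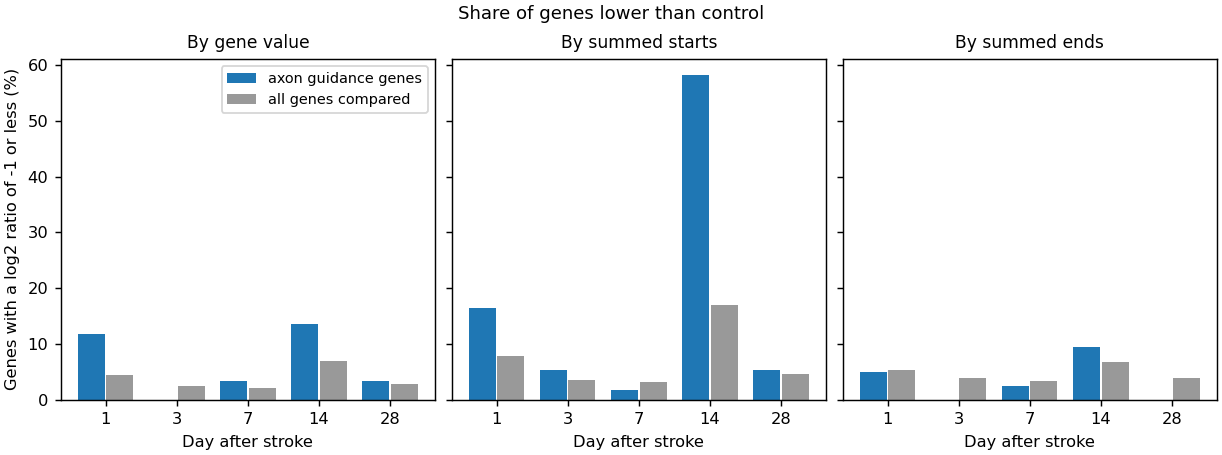
Percentage of genes with a log2 ratio to control of -1 or less at each day after stroke, for the guidance genes (blue) and all genes compared (grey), by the gene value, by summed starts and by summed ends (1 library per day). The blue bar by starts on day 14 stands at 58.2%, and the bars by ends stay at or below 9.52%.

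Not all guidance genes could be followed under their own identifier. Efna4, Epha1, Epha2 and Robo4 were listed but never reached 1 FPKM. Efnb2, Ntng2, Plxnb3, Plxnc1, Sema4b and Unc5cl had no value. For the first 5 of these 6, events on the same strand within the annotated span were filed under another gene, which was found after the data were examined. Within the span of Plxnc1, the plexin that binds Sema7a, events filed under Gm48718 had 5.31 FPKM in control, 4.22 on day 1, 6.29 on day 3, 6.19 on day 7, 4.29 on day 14 and 5.20 on day 28. Within Efnb2, the ephrin that binds Ephb4, events filed under Mir7654 had 8.11 in control, 7.47 on day 1, 8.46 on day 3, 8.42 on day 7, 6.98 on day 14 and 9.34 on day 28. Within Sema4b (Gm45206) they had between 2.95 and 4.38 FPKM, and within Plxnb3 (Srpk3) between 1.27 and 2.96. Within Ntng2, filed under the overlapping 6530402F18Rik, they had 9.91 in control, 5.77 on day 1, 7.65 on day 3, 3.92 on day 7, 4.25 on day 14 and 6.39 on day 28, and the RNA of the overlapping genes cannot be told apart. No event was listed within Unc5cl.

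Further signalling genes, whose products are secreted, at the cell surface or inside the cell, were taken from lists chosen with earlier results of these data known. Of 28 genes of semaphorin and plexin signalling, 25 had a value. On day 3, 3 of 25 were higher (all genes 8.54%) and 0 lower (2.53%), on day 7 2 were higher (8.53%) and 1 lower (2.12%), and on day 14 2 of 24 were higher (8.97%) and 3 lower (6.92%). Cd72, a B-cell and myeloid receptor for semaphorins, was not listed in control and on day 28 and had 2.02 FPKM on day 1, 2.94 on day 3, 11.4 on day 7 and 4.74 on day 14. Fes, a kinase downstream of plexins, had 0.101 in control, 0.343 on day 1, 2.12 on day 3, 2.68 on day 7, 2.27 on day 14 and 0.904 on day 28. Both were highest on day 7, as was the summed level of the microglia and macrophage markers, and the part of these cells was not tested. Arhgef12, a binding partner of B-class plexins, had 11.9 in control and 0.523 on day 14, with 9.36 to 19.0 in the other libraries. Dpysl5, of the collapsin response mediator family, had 5.04 in control and 1.14 on day 14, and Met, a receptor tyrosine kinase that couples to plexins, had 1.67 in control and 0.517 on day 7.

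Of 23 genes of Eph and ephrin signalling, 22 had a value and at most 1 of the 20 or 21 compared was higher or lower at any day, where 3.68% to 8.97% of all genes were higher and 2.12% to 6.92% lower. Abl2, a kinase that regulates the cytoskeleton, had 3.16 FPKM in control, 5.81 on day 1, 7.01 on day 3, 4.02 on day 7, 3.85 on day 14 and 6.56 on day 28. Vav2, a Rac exchange factor, had 2.59 in control and 5.30 on day 7, and Anks1b, a synaptic adaptor, 74.2 in control and 34.4 on day 14. All 18 genes of Slit and Robo signalling had a value, and 3 of 17 were higher (all genes 5.11%) and 1 lower (4.48%) on day 1. On day 3 and on day 7, 1 of 18 was higher (8.54% and 8.53%) and 0 lower. On day 14, 1 of 17 was higher (8.97%) and 1 lower (6.92%), and on day 28 none of 16 was called. Sdc1, higher on day 3 and 7, had 0.350 FPKM in control, 1.02 on day 3 and 1.17 on day 7. Srgap1 had 1.54 in control and was not listed on day 14, which counts as lower. Sdc4, a heparan sulfate proteoglycan, had 19.3 in control, 52.4 on day 1, 36.6 on day 3, 27.2 on day 7, 33.0 on day 14 and 33.4 on day 28. Flrt1, a cell adhesion protein, had 0.824 in control, 3.18 on day 1, 1.07 on day 3, 1.66 on day 7 and 2.73 on day 14, and was not listed on day 28. Flrt2, a ligand of Unc5d, had 9.72 in control and 4.60 on day 1, where Unc5d was lower as well.

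In the netrin and repulsive guidance molecule list, 18 of 21 genes had a value, none of 17 was higher at any day (all genes 3.68% to 8.97%), and 3 of 17, Ablim1, Rgmb and Ntn5, were lower on day 7 (all genes 2.12%). Lower were 0 on day 1 (4.48%), 1 on day 3 (2.53%), 2 on day 14 (6.92%) and 1 on day 28 (2.79%). Rgmb counts as lower from day 3 on only because it was not listed and was taken as 0. The netrin Ntn5, which the rule for the guidance genes does not take, had 2.14 FPKM in control, 2.16 on day 1, 1.33 on day 3, 0.938 on day 7, 2.32 on day 14 and 1.17 on day 28 (log2 ratio -1.11 on day 7). Rgmb had 6.31 FPKM in control and 3.43 on day 1 and was not listed later. Ablim1, an actin-binding protein, had 0.0783 on day 7 and between 6.88 and 13.7 in the other libraries, and Dock1, a Rac exchange factor, had 3.67 in control and 0.428 on day 14. Among the 8 of 10 genes with a value for myelin-associated inhibitors and their receptors, 2 of 8 were higher on day 7 (all genes 8.53%) and none was called at the other days. Mag, an inhibitor of axon growth in myelin, had 33.8 in control, 62.6 on day 1, 26.8 on day 3, 69.0 on day 7, 45.9 on day 14 and 54.0 on day 28. Ngfr, the p75 receptor, was not listed in control and had 1.12 FPKM on day 7. The median log2 ratio of each list at each day lay between -0.42, for the Slit and Robo list on day 14, and 0.29, for the myelin list on day 1.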

How the data were processed

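RNA-seq of pooled ipsilateral cortex was analysed in 6 libraries, 1 per group. The authors deposited FPKM per transcript start, transcript end and splicing event. The submitters' processing notes name Trimmomatic 0.30, HISAT2 2.0.1, HTSeq 0.6.1 and mm10; the assembler is not given in the sources used here. Gene levels, the pseudocount of 0.1 and the filter of 1 FPKM are described with the results. Symbols, spans and lengths are from GENCODE M21 (GRCm38, the same build as mm10); 15411 of 15441 identifiers matched. All but 2 of 2568 events of the guidance genes lay within their span. Sequencing depth is unknown, and intervals and detection floors are therefore not given.

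The members and lists were chosen with earlier results of these data known. Guidance genes of at least 1 FPKM are named, those with a log2 ratio of 1 or more in size and the 2 highest in control of each family with all their values, and up to 5 called genes of each signalling list. With 1 library per group no test was made. The scripts were tested on simulated data. 8 alternatives were planned and 2 added after the data were examined. Scripts ran under Python 3.11.15 with matplotlib 3.10.9 for plots and pandas 2.3.3 and numpy 2.4.6 for tables.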

Additional observations from a re-analysis of the deposited data

Results flagged for a closer look

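Events filed under another gene within the span of a guidance gene lay outside the gene levels compared, and in 4 cases a stroke library was above control. The highest values were 9.34 FPKM at day 28 for Efnb2 (control 8.11), 2.96 at day 7 for Plxnb3 (control 1.98), 6.29 at day 3 for Plxnc1 (control 5.31) and 4.38 at day 1 for Sema4b (control 2.95). No log2 ratio of these 4 genes reached 1 in size at any day. For Ntng2, where every stroke library was below control, the log2 ratio was -1.31 on day 7 and -1.20 on day 14.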

How the results depend on the processing

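No paired analysis was possible because each group had 1 library. The counts of higher and lower guidance genes are small, and a count that moved by over 1.5 times, or a median by 0.25 or more, is given here. With summed starts, 2 genes were higher on day 1, 3 lower on day 3, 1 lower on day 7, 32 lower on day 14 and 1 higher on day 28, the day 14 median was -2.06, and Plxnb2 on day 7 turned to -0.94. With summed ends, 2 were lower on day 1, 1 higher on day 3, 1 lower on day 7, 4 lower on day 14, and 1 higher and 0 lower on day 28, with a day 14 median of 0.093. A pseudocount of 1 FPKM gave 1 higher on day 3, 1 higher and 0 lower on day 7, and 0 higher and 1 lower on day 28. Without the filter on low values, 3 were higher on day 1, 4 higher and 1 lower on day 3, and 2 higher on day 14. Genes listed in both libraries gave 5 lower on day 14. Median scaling gave 1 higher on day 28, and the length correction 0 higher on day 1 and 1 on day 28. Without Unc50 and Unc5cl, left out after the data were examined, 0 were higher on day 1, 0 on day 14 and 1 on day 28. The cause of these differences was not tested. Keeping events inside the span and adding the genes filed under another identifier, the latter chosen after the data were examined, moved none of the counts and medians so far. The unknown depth limits what can be said of levels under 1 FPKM.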
